A study of Mus musculus with 8 samples.

Results

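The Vmn2r pseudogenes are gene models of the mouse type 2 vomeronasal receptor family that the annotation marks as pseudogenes by name. They were chosen as every gene of the deposited count tables whose GENCODE M21 symbol starts with Vmn2r and contains -ps, at any level of counts. This gave 102 genes of 48831. GENCODE M21 holds 117 such symbols, and the other 15 have no row of that identifier in the tables. Among the 102, 89 are annotated as unprocessed pseudogenes, 5 as transcribed unprocessed pseudogenes, 3 as processed pseudogenes and 1 as a processed transcript. A further 2, Vmn2r-ps5 and Vmn2r-ps119, are polymorphic pseudogenes, a class that codes for protein in some individuals or strains, and 2, Vmn2r-ps159 and Vmn2r-ps130, are annotated as protein-coding in spite of their names.

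The study measured RNA in whole vomeronasal epithelium of C57BL/6J mice aged 8 weeks by stranded, polyA-selected RNA sequencing. The 8 libraries form 4 groups of 2. In the non-flushed groups each library holds tissue pooled from 2 mice of the same sex, as 2 female and 2 male pools. In the flushed groups each library comes from 1 mouse whose blood was washed out, as 2 females and 2 males. The protocol text shared by all 8 libraries describes flushing with heparin, while the description of the pools says that they were not flushed, and the descriptions were followed. Preparation, pooling and sequencing run changed together, as the table headers name different dated folders and lanes, and they cannot be told apart. No genetic change or treatment was applied, and nothing says whether mice of a group shared a litter, so p-values measure the spread between these libraries.

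Type 2 vomeronasal receptors are G-protein-coupled receptors with a large extracellular domain that binds peptide and protein cues. They are made by neurons of the basal layer of the vomeronasal epithelium, which signal through the G protein subunit Gnao1. Most such neurons express 1 variable receptor together with members of a small broadly expressed group, family C, which includes Vmn2r1 to Vmn2r7. The family expands by duplication in clusters, and copies that lose an open reading frame remain there as pseudogenes.

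The sequences below show the first break of the reading frame in 4 pseudogenes of measurable level, beside the most similar intact gene. All are read from the GENCODE M21 transcripts of the GRCm38 build, over the exons of the count tables, and are written 5′ to 3′ on the gene's strand. Capitals mark the codon at which the pseudogene holds a stop in frame, and in the last pair the inserted base. Vmn2r-ps38 also holds later breaks that are not printed, a frame shift at codon 468 and stops at codons 474 and 626. In Vmn2r-ps38 (chr7:7714429-7714521, minus strand) the first stop lies at codon 365 of the 852 codons of Vmn2r28 (chr7:5488107-5488199, minus strand).
Vmn2r-ps38: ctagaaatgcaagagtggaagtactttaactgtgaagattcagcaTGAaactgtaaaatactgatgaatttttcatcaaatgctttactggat
Vmn2r28: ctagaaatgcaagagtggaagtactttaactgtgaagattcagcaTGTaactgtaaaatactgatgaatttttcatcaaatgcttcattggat
In Vmn2r-ps5 (chr3:64352717-64352809, minus strand), a relative of the family C gene Vmn2r5 (chr3:64504306-64504398, minus strand), it lies at codon 265 of 911.
Vmn2r-ps5: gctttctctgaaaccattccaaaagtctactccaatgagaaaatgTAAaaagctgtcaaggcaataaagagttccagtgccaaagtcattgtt
Vmn2r5: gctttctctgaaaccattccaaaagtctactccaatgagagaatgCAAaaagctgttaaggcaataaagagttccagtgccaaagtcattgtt
In Vmn2r-ps129 (chr17:23008419-23008511, plus strand) it lies at codon 689 of the 856 codons of Vmn2r113 (chr17:22958263-22958355, plus strand), while the near copy Vmn2r-ps130 (chr17:23076874-23076966, plus strand) has no stop there.
Vmn2r-ps129: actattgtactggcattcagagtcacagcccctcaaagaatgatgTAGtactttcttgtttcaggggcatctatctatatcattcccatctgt
Vmn2r-ps130: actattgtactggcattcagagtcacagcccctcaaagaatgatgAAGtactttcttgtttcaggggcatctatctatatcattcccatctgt
Vmn2r113: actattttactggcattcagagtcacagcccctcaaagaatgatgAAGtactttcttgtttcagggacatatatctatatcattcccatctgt
In Vmn2r-ps36 (chr7:7438106-7438196, minus strand) a run of 9 adenines stands where Vmn2r40 (chr7:8928168-8928257, minus strand) has 8, at codon 121 of 852. Any base of the run could be the inserted 1.
Vmn2r-ps36: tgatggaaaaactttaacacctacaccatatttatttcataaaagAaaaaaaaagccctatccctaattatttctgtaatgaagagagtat
Vmn2r40: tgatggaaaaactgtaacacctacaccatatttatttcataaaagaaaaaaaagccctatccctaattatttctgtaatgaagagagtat

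The libraries held 18763557 to 24965088 estimated counts each, with reads that map to several places divided among them. The defining markers of the tissue were present, with Omp at 341 to 484 CPM (counts scaled to a library of 1000000 counts) and Gnao1 at 47.8 to 59.9 CPM, but the channel gene Trpc2 was listed at 0 in every library. Among other cell types, all 6 red cell genes, all 4 neutrophil genes and all 5 fibroblast and bone genes were lower in the flushed libraries. Red cell genes summed to 1644 to 2050 CPM in pools, against 105 to 619 CPM after flushing. Neutrophil genes summed to 179 to 288 against 27.7 to 151 CPM, and fibroblast and bone genes to 33636 to 44235 against 15182 to 20556 CPM. The sum of the 3 plasma cell genes was 21.3 to 93.9 CPM in pools, against 127 to 262 CPM after flushing. The 11 genes common to vomeronasal sensory neurons summed to 1246 to 1443 CPM in the pools and 1211 to 1304 CPM in the flushed libraries.

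The Vmn2r pseudogenes took a small share of receptor reads. They held 1868 to 2090 counts in the pools and 4201 to 5698 counts in the flushed libraries. Of the counts on these pseudogenes and 120 intact Vmn2r genes together, this was 6.43% ± 0.28 (SD, n = 4) in the pools. In the flushed libraries it was 6.54% ± 0.39 (SD, n = 4). Vmn2r genes in neither set are left out of that total. Among them is Vmn2r125, annotated as an unprocessed pseudogene, at 10.4 to 11.9 CPM in the pools and 20.6 to 25.1 CPM after flushing. The 2 sets of values overlapped, at 6.07% to 6.74% for pools against 6.07% to 6.95% after flushing. This rested on Vmn2r-ps159, which is annotated as protein-coding. With that gene left out, the share was 3.06% to 3.27% in the pools and 3.29% to 3.62% in the flushed libraries, without overlap. That gap was narrow, and the share still held Vmn2r-ps42. Together Vmn2r-ps159 and Vmn2r-ps42 held 61.6% to 63.2% of the pseudogene counts in the pools and 63.6% to 66.1% in the flushed libraries. A share without both genes is not given, so these values do not show a larger share for the other pseudogenes. As a share of all counts the pseudogenes took 0.00929% to 0.0106% in the pools and 0.0190% to 0.0228% in the flushed libraries, and these ranges did not overlap.

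Expression was concentrated in few genes. Of the 102 pseudogenes, 32 had no count in any library, another 21 had a mean of less than 1 count, and 42 had counts in all 8 libraries. Between 48 and 59 had a count in any given library. A count of 0 allows up to 0.118 to 0.172 CPM, taken as 3 counts of a library, for counting error only. Vmn2r-ps159 alone held 50.2% of the summed mean CPM of the pseudogenes, Vmn2r-ps42 brought this to 64.3%, and the 10 highest brought it to 84.7%.

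A filter on low counts kept 31 pseudogenes for testing, and these were mostly long gene models. The tables give 5 or more exon blocks, near the 6 exons of an intact receptor's coding part, to 32 pseudogenes, of which 26 passed the filter. Of 27 pseudogenes with 2 to 4 blocks 3 passed, and of 43 with a single block 2 passed, Vmn2r-ps52 and Vmn2r-ps125. Shorter models also collect fewer reads at the same level per base, so the blocks and the level are not independent.

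**Figure D1:**
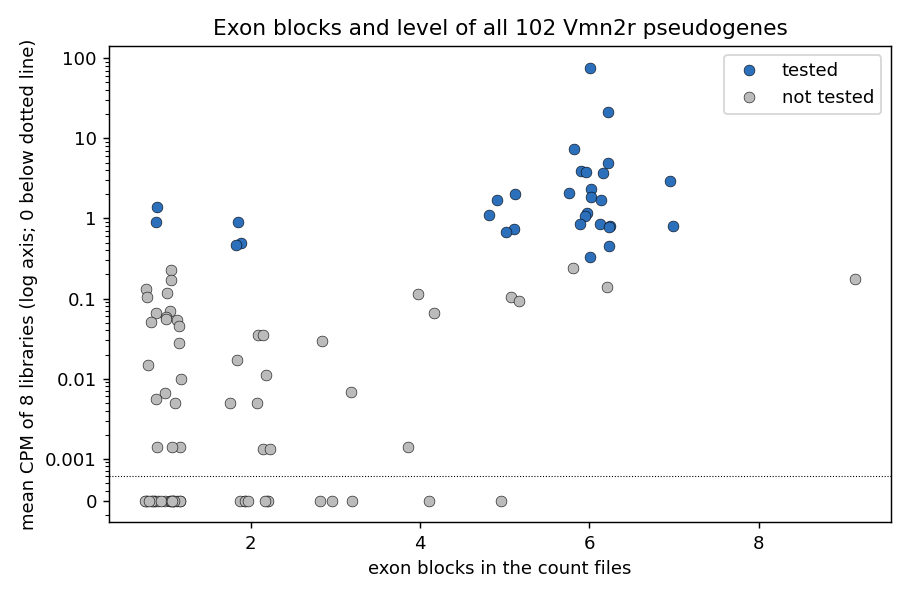
Exon blocks of each gene model (x axis) against the mean CPM of 8 libraries (y axis, log scale, with genes at 0 drawn below the dotted line), 1 point for each of 102 Vmn2r pseudogenes, blue where it passed the filter on low counts and grey where it did not. Of the 32 models with 5 or more blocks 26 are blue, against 5 of the other 70.

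Of the 31 tested pseudogenes, 30 lay on the chromosome of their closest intact gene, and Vmn2r-ps159 did not. On chromosome 7, a stretch from 7153687 to 12468852 (GRCm38) held 16 pseudogenes, of which 14 were tested and none was at 0, with 29.9% of the pseudogene CPM. A later stretch of the same chromosome, from 84810428 to 86885740, held 23, of which 1 was tested, Vmn2r-ps82, and 17 were at 0. On chromosome 17, 10 of 20 were tested and 6 were at 0. Vmn2r-ps159 was the only pseudogene of its stretch on chromosome 4, a chromosome with no intact Vmn2r gene in the tables.

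Vmn2r-ps139, on chromosome Y, had 0.50 to 2.00 counts in each of the 8 libraries, the 4 female libraries included. Its counts were not whole numbers in 6 libraries. The other pseudogene of that chromosome, Vmn2r-ps149, was at 0.

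Levels per length are given as RPKM, the CPM divided by the exon length in kilobases from the tables. Vmn2r-ps159 (chr4:156331103-156339499) was the highest at 24.96 RPKM ± 8.34 (SD, n = 8), with a range of 15.4 to 36.6. Next came Vmn2r-ps42 (chr7:8954489-8969976) at 10.4 ± 5.84. In each library these 2 lay above all other pseudogenes.

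Below them the order depended on the preparation. In the pools Vmn2r-ps52 came next at 1.99 ± 0.11 RPKM (SD, n = 4), above Vmn2r-ps82 (chr7:86053700-86063461) at 1.65 ± 0.13 and Vmn2r-ps36 (chr7:7417668-7441299) at 1.55 ± 0.16. In the flushed libraries it was below them, at 2.56 ± 0.41 against 4.42 ± 0.97 and 4.16 ± 0.64 RPKM. Vmn2r-ps82 and Vmn2r-ps36 themselves differed by less than their SDs in both preparations. Likewise Vmn2r-ps128 was below Vmn2r-ps130 in every pool (0.919 ± 0.15 against 1.36 ± 0.22 RPKM) and above it in every flushed library (2.06 ± 0.45 against 1.68 ± 0.53). Vmn2r-ps129, at 1.24 ± 0.20 and 1.66 ± 0.51 RPKM, differed from Vmn2r-ps130 by less than their SDs in both. By the mean of all 8 libraries, the 12 highest closed with Vmn2r-ps11 at 1.09, Vmn2r-ps125 at 0.968, Vmn2r-ps46 at 0.918 and Vmn2r-ps37 at 0.876 RPKM. The tested pseudogenes had a median of 0.696 RPKM, and the lowest was Vmn2r-ps57 at 0.126. The highest of the pseudogenes that were not tested, Vmn2r-ps19, reached 0.849 RPKM over an exon of 269 bases.

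**Figure D2:**
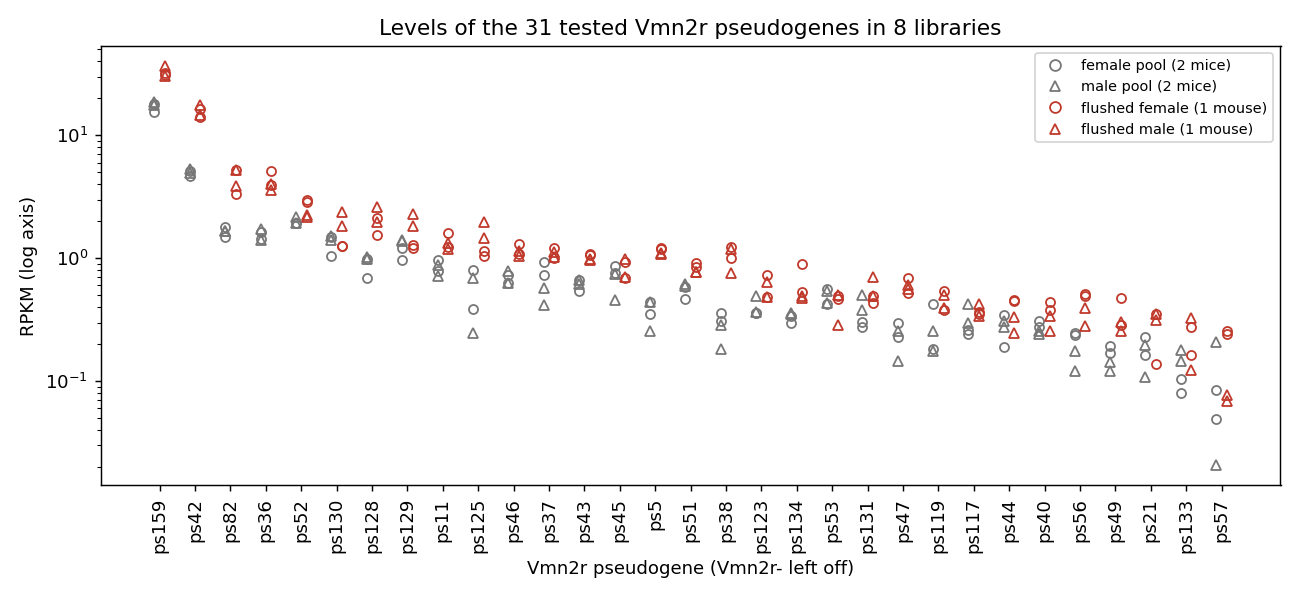
RPKM (y axis, log scale) of each tested Vmn2r pseudogene (x axis, ordered by mean) in 8 libraries, circles for females and triangles for males, grey for pools of 2 mice and red for flushed single mice. Vmn2r-ps159 and Vmn2r-ps42 lie above all others, and red points lie above grey ones for most genes.

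The annotation class followed the level only in part. Both protein-coding members were tested, at 24.96 RPKM for Vmn2r-ps159 and 1.52 RPKM for Vmn2r-ps130. Of the 5 transcribed unprocessed pseudogenes, a class assigned where transcripts are known, only Vmn2r-ps11 was tested, at a mean of 66.5 counts. The other 4, Vmn2r-ps54, Vmn2r-ps87, Vmn2r-ps34 and Vmn2r-ps104, had means of 0.0313 to 3.88 counts. None of the 3 processed pseudogenes, which are copies of spliced RNA, was tested.

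Few of the pseudogenes that could be read held a long open reading frame, and those that did were among the 31 tested. In 26 pseudogenes an ATG stood where the closest intact coding sequence starts, and 23 of these were tested. The others could not be read. All 26 had 5 or more exon blocks, the models that mostly passed the filter, so frame and testing are not independent. Frames were read from that ATG to the first stop in the gene's own frame, or to the end of the gene model. Of the 26, 4 had no stop over at least 90% of the length of the intact relative, and all 4 were tested. The median over the 26 was 31.6%. Between each of 119 intact coding sequences and its closest other one, an ATG was aligned at the start in 107. The same measure gave at least 90% in 106 of these. They were chosen as annotated coding sequences, so they are open by choice and the value mainly compares lengths. Splice sites were not examined.

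The 4 open frames belonged to Vmn2r-ps159 at 100%, Vmn2r-ps56 at 100%, Vmn2r-ps130 at 99.9% and Vmn2r-ps49 at 97.0%. That of Vmn2r-ps49 was not unbroken, with a frame shift at codon 830 of the 861 codons of Vmn2r35 and a frame of 835 codons. No stop in frame and no frame shift was found in Vmn2r-ps159, Vmn2r-ps56 or Vmn2r-ps130. The levels of the 4 genes ranged from 24.96 RPKM for Vmn2r-ps159 to 0.243 RPKM for Vmn2r-ps49. In Vmn2r-ps42 no stop was met before the end of its gene model of 2083 bases, at 81.5% of the length of Vmn2r42. Vmn2r-ps42 was 99.95% identical to Vmn2r42 over the aligned bases, which covered 81.4% of the coding sequence. Among the genes whose breaks are printed above, the frame closed after 127 codons in Vmn2r-ps36, 364 in Vmn2r-ps38, 262 in Vmn2r-ps5 and 687 in Vmn2r-ps129.

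**Figure D3:**
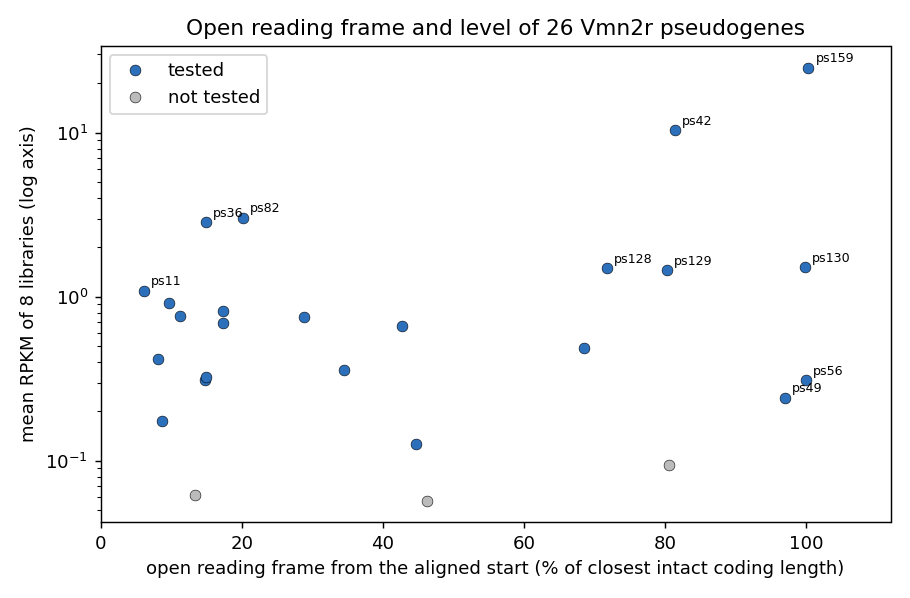
Length of the open reading frame from the aligned start, in percent of the coding length of the closest intact gene (x axis), against mean RPKM of 8 libraries (y axis, log scale), for the 26 Vmn2r pseudogenes with an aligned ATG. The 4 points at or above 90% span levels from 0.243 to 24.96 RPKM, and Vmn2r-ps36 and Vmn2r-ps82 reach about 3 RPKM with frames of 14.9% and 20.1%.

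Many pseudogenes share sequence with other genes, which bears on every value here. Over windows of 100 bases, the read length, the tested pseudogenes shared a median of 51.3% of their exon windows exactly with other genes, and 30 of 31 had counts that were not whole in at least 1 library. Vmn2r-ps42 shared 96.2% of its windows, mostly with Vmn2r42, and its counts were not whole in any of the 8 libraries. Vmn2r-ps129 and Vmn2r-ps130 shared 73.3% of their windows with each other. In contrast, Vmn2r-ps82 shared 0.713% of its windows and Vmn2r-ps159 15.2%. Vmn2r-ps125 and Vmn2r-ps133 shared none.

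The first comparison asked which pseudogenes differed between flushed single mice and non-flushed pools. Of the 31 tested, 16 were higher and none was lower in the flushed libraries (edgeR's quasi-likelihood test, adjusted p under 0.05 over 20601 genes). Over all genes 22.6% were called higher. The median log2 difference was 0.73 for the pseudogenes, 0.96 for the 117 tested intact Vmn2r genes and -0.02 for all genes. Of the intact genes, 106 were higher and none was lower. Of 11 genes listed for basal neurons, the 6 higher ones were all family C receptors. The other 5 were Gnao1 at -0.15, Robo2 at 0.02, Tfap2e at -0.23, Hspa5 at -0.08 and Calr4 at -0.29 on the log2 scale, of which Calr4 was called lower (edgeR adjusted p = 0.029). In whole tissue, fewer cells of a type and less RNA per cell cannot be told apart. The parts of preparation, pooling, run and of the other cell types named above in this difference were not tested.

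With library sizes set on the intact Vmn2r genes alone, the pseudogenes moved both ways. Then 5 were higher, against 0.811% of all genes, and 7 were lower, against 83.6% of all genes. The median of the pseudogenes became -0.23, and 20 of the 30 that had been above 0 were below it. The 5 still higher were Vmn2r-ps38 at 0.90, Vmn2r-ps42 at 0.69, Vmn2r-ps5 at 0.65, Vmn2r-ps36 at 0.46 and Vmn2r-ps82 at 0.44 on the log2 scale. The 7 lower were Vmn2r-ps53, Vmn2r-ps45, Vmn2r-ps130, Vmn2r-ps117, Vmn2r-ps52, Vmn2r-ps40 and Vmn2r-ps129, from -1.12 to -0.57.

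For Vmn2r-ps159 the levels were 47.3, 54.9, 54.4 and 57.0 CPM in the 4 pools and 97.8, 95.6, 112.5 and 93.6 CPM in the 4 flushed libraries. No flushed library overlapped a pool. The difference was 0.90 ± 0.07 (SE) on the log2 scale, 1.87-fold, with an edgeR adjusted p of 2.4e-05. With library sizes set on the intact receptors it was -0.06, with an adjusted p of 0.459. Its closest intact relative, Vmn2r121 on chromosome X, at 95.2% identity, had a log2 difference of 0.90.

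For Vmn2r-ps42 the pools held 9.68, 10.66, 11.04 and 10.19 CPM and the flushed libraries 34.2, 29.5, 36.9 and 30.3 CPM. The groups lay far apart. The log2 difference was 1.66 ± 0.09 (SE), 3.15-fold, with an edgeR adjusted p of 1.4e-05. Vmn2r42 itself differed by 1.00.

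Vmn2r-ps36, with the inserted adenine, was at 3.65, 4.20, 3.59 and 4.45 CPM in the pools and 13.01, 10.04, 10.37 and 9.23 CPM in the flushed libraries. All flushed libraries were above all pools, by 1.43 ± 0.13 (SE) on the log2 scale (edgeR adjusted p = 4.1e-05). Its relative Vmn2r40 differed by 0.92.

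Vmn2r-ps82 was at 2.43, 2.96, 2.73 and 2.73 CPM in the pools and at 8.58, 5.45, 8.60 and 6.38 CPM in the flushed libraries. The groups did not overlap, and the log2 difference was 1.42 ± 0.18 (SE), with an edgeR adjusted p of 0.000182. Its closest intact gene, Vmn2r69, differed by 1.43.

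The largest log2 difference was that of Vmn2r-ps38, whose stop codon is printed above. It was at 0.797, 0.924, 0.473 and 0.732 CPM in the pools and 3.19, 2.60, 3.05 and 1.93 CPM in the flushed libraries. Again no values overlapped. The log2 difference was 1.87 ± 0.23 (SE), 3.65-fold (edgeR adjusted p = 0.000167), against 1.14 for Vmn2r28.

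Both tested relatives of family C rose. Vmn2r-ps5 was at 0.963, 1.201, 0.703 and 1.196 CPM in the pools and 3.28, 3.24, 2.996 and 2.95 CPM in the flushed libraries, a log2 difference of 1.61 ± 0.18 (SE) (edgeR adjusted p = 0.000119). Vmn2r-ps11 was at 2.15, 2.64, 1.95 and 2.42 CPM in the pools and 4.37, 3.39, 3.62 and 3.23 CPM in the flushed libraries, a log2 difference of 0.68 ± 0.15 (SE) (edgeR adjusted p = 0.00523). In neither gene did the groups overlap. Their common relative Vmn2r5 differed by 1.29, and all 6 of the family C genes in the tables were higher, with a median of 0.86.

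Vmn2r-ps128, a relative of Vmn2r113, was at 1.77, 2.52, 2.51 and 2.64 CPM in the pools and 5.42, 3.97, 6.75 and 5.07 CPM in the flushed libraries, with a log2 difference of 1.17 ± 0.17 (SE) (edgeR adjusted p = 0.000441). The other genes called were Vmn2r-ps47 at 1.36, Vmn2r-ps125 at 1.32, Vmn2r-ps56 at 1.11, Vmn2r-ps49 at 1.10, Vmn2r-ps37 at 0.73, Vmn2r-ps43 and Vmn2r-ps46 at 0.72 each and Vmn2r-ps51 at 0.55. Vmn2r-ps37 and Vmn2r-ps51 were the weakest of these. DESeq2 did not call either, and Vmn2r-ps37 was called in only 2 of the 8 fits that leave out a library. It was lost without female pool 1, male pool 1, male pool 2, flushed female 2, flushed male 1 or flushed male 3. Vmn2r-ps51 was called in 5 of 8, and lost without female pool 2, flushed female 2 or flushed female 3.

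Vmn2r-ps53, which stands 104 kilobases from Vmn2r53, was the only tested pseudogene with a log2 difference below 0. It was at 1.00, 1.33, 1.02 and 1.27 CPM in the pools and 1.09, 1.16, 1.18 and 0.678 CPM in the flushed libraries, and the groups overlapped. The log2 difference was -0.16 ± 0.24 (SE), with an edgeR adjusted p of 0.619. Vmn2r-ps129 missed the threshold at 0.40 (edgeR adjusted p = 0.0502), and Vmn2r-ps130 was at 0.27 (edgeR adjusted p = 0.217). Their relative Vmn2r113 differed by 1.24.

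**Figure D4:**
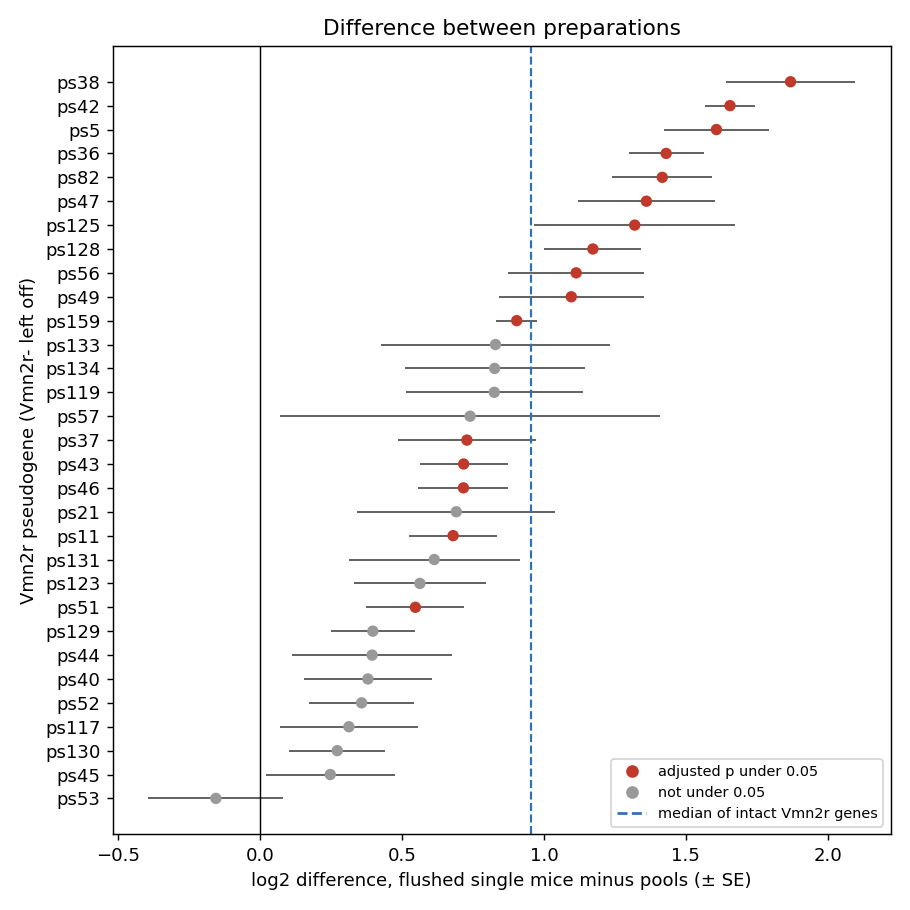
Log2 difference between flushed single mice and pools (x axis, points with bars of 1 SE) for the 31 tested Vmn2r pseudogenes (y axis), red where edgeR's adjusted p was under 0.05, with the median of the intact Vmn2r genes as a dashed line. Of the 31 points 30 lie above 0, and the 16 red ones run from 0.55 to 1.87.

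By plain separation of the libraries, 18 of 31 pseudogenes had every flushed library above every pool, against 21.3% of all tested genes. None had every flushed library below every pool, against 4206 of 20601 tested genes.

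The 4 tested pseudogenes of lowest CPM were not called. Vmn2r-ps57, Vmn2r-ps133, Vmn2r-ps131 and Vmn2r-ps134 had means of 0.328 to 0.490 CPM and SEs of 0.30 to 0.67 on the log2 scale. Their log2 differences by preparation were 0.74, 0.83, 0.61 and 0.83, and none passed the test.

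The called pseudogenes were also counted by the amount of shared sequence. Of 9 pseudogenes that shared under 10% of their windows, 3 were called, with a median log2 difference of 0.83. Of 7 that shared from 10% to less than 60%, 4 were called (median 0.83), and of 15 that shared 60% or more, 9 were called (median 0.68). Across the 31 genes, which share libraries and sequence, Spearman's rho between shared windows and the log2 difference was -0.15.

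The second comparison asked whether pseudogenes differed between males and females. None of the 31 passed edgeR's test, with preparation in the fit, against 0.116% of all genes. At an unadjusted p under 0.05 there were 3 in edgeR, 3 in limma-voom and 2 in DESeq2, and none was called by those tools after adjustment. The share of all genes at the unadjusted threshold was not counted, so these numbers are not read as a result. Those in edgeR were Vmn2r-ps56 and the near copies Vmn2r-ps129 and Vmn2r-ps130, which share most of their windows. The median log2 difference of males minus females was -0.12.

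The smallest p-value was that of Vmn2r-ps129. It was at 2.48 and 3.10 CPM in female pools and 3.60 and 3.51 CPM in male pools, and at 3.32 and 3.09 CPM in flushed females and 5.92 and 4.72 CPM in flushed males. Every male library was above every female library, which held for 1 of 31 pseudogenes and for 192 of 20601 tested genes. The log2 difference was 0.55 ± 0.15 (SE) (edgeR adjusted p = 0.398). It passed only when no filter on low counts was used, with an edgeR adjusted p of 0.0481.

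Its near copy Vmn2r-ps130 was at 2.68 and 3.799 CPM in female pools, 3.88 and 3.63 CPM in male pools, 3.24 and 3.23 CPM in flushed females and 6.08 and 4.69 CPM in flushed males. Females and males overlapped. The log2 difference was 0.50 ± 0.17 (SE) (edgeR adjusted p = 0.493). As the 2 genes share most of their windows, they are not separate observations. Vmn2r113, the intact relative of both, differed by 0.04 (edgeR adjusted p = 0.983).

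Vmn2r-ps56 was at 0.620 and 0.639 CPM in female pools, 0.459 and 0.316 CPM in male pools, 1.34 and 1.29 CPM in flushed females and 0.733 and 1.03 CPM in flushed males. It was lower in males within each preparation, by -0.62 ± 0.24 (SE) on the log2 scale (edgeR adjusted p = 0.539). Its intact relative Vmn2r58, with which it shares 6.33% of its windows, was lower in males by -1.38 ± 0.10 (SE), with an edgeR adjusted p of 0.00015. Vmn2r58 means were 14.8 CPM in females and 5.78 CPM in males. The difference between the 2 genes was not tested.

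Vmn2r-ps159 showed no sex difference past the test, at 0.11 ± 0.07 (SE) on the log2 scale (edgeR adjusted p = 0.763). Its closest intact relative Vmn2r121 was lower in males, by -0.78 ± 0.09 (SE) (edgeR adjusted p = 0.0113).

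**Figure D5:**
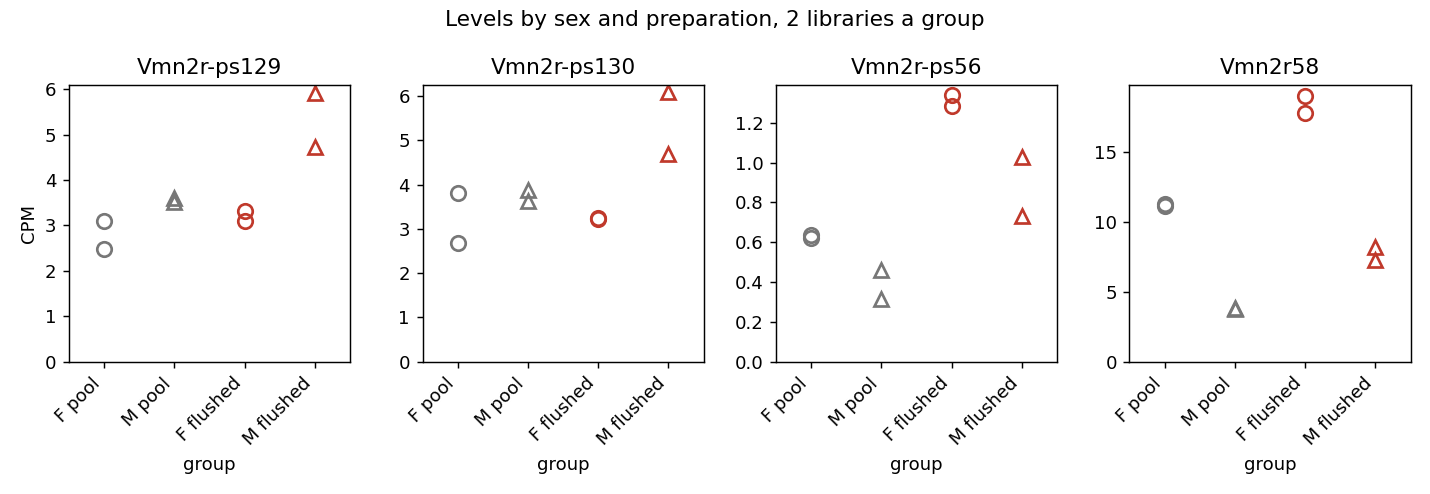
CPM (y axis, from 0, own scale in each panel) of Vmn2r-ps129, Vmn2r-ps130, Vmn2r-ps56 and the intact gene Vmn2r58 by group (x axis, F for female and M for male), 2 libraries a group. Males lie above females for Vmn2r-ps129 and below them within each preparation for Vmn2r-ps56 and Vmn2r58.

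The third comparison asked whether the sex difference changed with preparation. No pseudogene of 31 passed edgeR's interaction test, against 0.0485% of all genes. At an unadjusted p under 0.05 there was 1 in edgeR, Vmn2r-ps57, and there were 0 in limma-voom and 0 in DESeq2. The share of all genes at the unadjusted threshold was not counted here either. Vmn2r-ps57 was at 0.221 and 0.128 CPM in female pools, 0.0540 and 0.546 CPM in male pools, 0.666 and 0.627 CPM in flushed females and 0.178 and 0.202 CPM in flushed males. Several of these values are near the 3 counts that a 0 allows.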

How the data were processed

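RNA of 8 libraries was analysed from the authors' deposited tables of estimated counts per gene, made with featureCounts 1.6.5 after STAR 2.7.1a per the submitters' processing notes. Per the file headers, reads were counted over exons on the reverse strand, multi-mapping reads were split as fractions and reads over 2 genes were dropped, with an annotation edited by the authors; 10.2% to 11.8% of genes had counts that were not whole in a library. Counts were rounded for edgeR 4.0.16 (TMM, filterByExpr by group, quasi-likelihood test, sex and preparation as terms, Benjamini-Hochberg over 20601 genes); limma 3.58.1 and DESeq2 1.42.0 were alternatives (R 4.3.3). CPM came from unrounded counts and TMM-scaled library sizes. On simulated data of 20601 genes with 200 changed, the test recovered 66.5% of 1.5-fold and 91% of 2-fold changes by preparation, and 71% and 92.5% by sex. The changed genes were drawn from those with a mean above 2 CPM. Most tested pseudogenes had a lower mean, so these rates do not apply to them.

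The members and lists were chosen with earlier results of these data known. Genes were named for any call by sex or interaction, the 12 smallest p-values by preparation, values below 0, the 12 highest RPKM, the 4 lowest tested CPM, protein-coding annotation and intact relatives; others are named where counts are small, chosen after their values were seen. Genes most correlated with the highest member are not given, as the libraries form 2 clusters by preparation. Sequences were aligned to the closest intact coding sequence (119 of 120 had one); the measure of open frames and the stretches (gaps over 5 Mb) were chosen after seeing the data.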

Additional observations from a re-analysis of the deposited data

Results flagged for a closer look

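Among 44 sets of 4 libraries (22 named pseudogenes in pools and in flushed libraries), 4 held a library far from the other 3 of its preparation; chance gives this in about 1 in 20 sets. Vmn2r-ps128 was at 1.775 CPM in female pool 1, below the other pools. Vmn2r-ps53 was at 0.678 CPM in flushed male 3, below the other flushed libraries. Vmn2r-ps52 was at 1.325 CPM in male pool 2, above the other pools, which differed by little. Vmn2r-ps134 was at 0.946 CPM in flushed female 2, above the other flushed libraries. For Vmn2r-ps134 both male libraries also lay above both female libraries in the pools and below them in the flushed libraries. The interaction was -0.65 on the log2 scale, with an unadjusted p of 0.343 and an adjusted p of 1.00 by edgeR's quasi-likelihood test.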

How the results depend on the processing

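The count of 16 pseudogenes called by preparation lay between 14 and 20 under DESeq2, limma-voom, RLE scaling, no filter, a mean count of at least 20 and no sex term, and between 15 and 18 when 1 library was left out. With library sizes over intact Vmn2r genes, 12 were called, 5 higher and 7 lower, and the median became -0.23. There, 20 of 30 log2 differences above 0 turned below it. Those of genes called by default were Vmn2r-ps159 (-0.061), Vmn2r-ps43 (-0.25), Vmn2r-ps46 (-0.25), Vmn2r-ps11 (-0.29), Vmn2r-ps37 (-0.23) and Vmn2r-ps51 (-0.42). Those called lower were Vmn2r-ps45 (-0.71), Vmn2r-ps130 (-0.69), Vmn2r-ps117 (-0.65), Vmn2r-ps52 (-0.61), Vmn2r-ps40 (-0.58) and Vmn2r-ps129 (-0.57), and 8 more were called in neither. Relative to most genes, this scaling lowers all values in the flushed libraries. By sex, no filter gave 1 call, and no other setting gave any; the interaction gave 0 in each setting. Of the counts on pseudogenes and intact Vmn2r genes, pseudogenes held 7.55% in pools and 7.56% in flushed libraries without family C. Over whole-number counts they held 3.01% and 9.94%, where flushed female 3 alone gave 30.3% because Vmn2r-ps159 happened to be whole there. Titles of male and female pools carry the same mouse numbers, and 1 flushed mouse of each sex is numbered 3, though all are different mice. Deviations from group means correlated at 0.17 for the pools and -0.01 for the flushed pair (over 20601 genes). With 2 libraries a group, both pool pairs must give the same value. These values have no reference and cannot decide whether the numbers pair libraries. In the main fit the numbers were not taken as pairs. A replicate block on them, chosen after seeing the data, gave 0 calls by sex. For preparation no paired analysis was possible because the pools and single mice have no mouse numbers that pair them.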
